A study of Mus musculus with 6 samples.

Results

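The Dppa genes, named for developmental pluripotency-associated proteins, were taken here as Dppa2, Dppa3, Dppa4 and Dppa5a, 4 of 21000 protein-coding RefSeq genes with a curated transcript. They were chosen by name and not by a measured value. For each gene, the ATAC-seq peaks within 1 kb of its RefSeq transcription start site (TSS) and those in its window, the gene span plus 20 kb on each side, were collected. The windows held 15 of the 41014 peaks in the list. ATAC-seq uses the Tn5 transposase to cut and tag accessible DNA, and it was performed in untreated V6.5 cells, a mouse embryonic stem cell (mESC) line that per the labels was grown on irradiated mouse embryonic fibroblasts with LIF. The methods of the study list LIF with the inhibitors CHIR99021 and PD0325901 and name no feeder cells, so the culture of these samples is given differently by the 2 sources. The 2 untreated samples stand behind 1 list of peaks, so no values per replicate, no spread and no depth of each library could be given, and nothing below is a test between samples. The remaining 4 samples, ZBTB21-degron mESCs at 0 h and at 6 h of IAA (indole acetic acid, the auxin that triggers degradation of the tagged ZBTB21) with 2 samples each, were not analysed here. The treatment text shared by all the labels, which has degron cells given doxycycline, stands also on the untreated samples, which are labelled as untreated V6.5 cells.

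DPPA2 and DPPA4 are related nuclear proteins with a SAP DNA-binding domain that act together at promoters, and they are known as activators of the gene program of the 2-cell embryo. DPPA3, also called STELLA or PGC7, is a maternal factor that binds UHRF1 and limits maintenance of DNA methylation in oocytes, early embryos and primordial germ cells. DPPA5A, also called ESG1, is a small KH-domain protein of the kind that binds RNA. All of them are used as marks of pluripotent and germ cells.

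The genes lie at 3 places. Dppa4 (GeneID 73693) spans chr16:48283735-48294292 and Dppa2 (GeneID 73703) chr16:48310274-48319513, both on the plus strand with 26.5 kb from start to start. Dppa3 (GeneID 73708) spans chr6:122626424-122630271 on the plus strand, and Dppa5a (GeneID 434423) chr9:78367052-78368199 on the minus strand. Coordinates are those of GRCm38, the assembly that mm10 names. The windows of Dppa2 and Dppa4 share 3 of their peaks, which were counted once in the total. RefSeq gives 1 curated start for each gene.

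A few of the peaks are shown by their central 300 bases, plus strand, with matches to a set of transcription factor motifs in capitals. The first is the peak nearest to the start of Dppa3, the second the widest peak between Dppa4 and Dppa2, then the peak just upstream of Dppa2, and the last the peak with the highest score of the 15, downstream of Dppa5a.
Dppa3, chr6:122624540-122624839: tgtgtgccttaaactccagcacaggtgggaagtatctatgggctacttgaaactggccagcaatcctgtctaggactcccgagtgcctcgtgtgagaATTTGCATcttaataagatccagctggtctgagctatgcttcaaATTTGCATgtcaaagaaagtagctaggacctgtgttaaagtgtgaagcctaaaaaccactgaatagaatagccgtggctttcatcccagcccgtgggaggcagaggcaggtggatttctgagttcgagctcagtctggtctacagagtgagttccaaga
Dppa4 to Dppa2, chr16:48303460-48303759: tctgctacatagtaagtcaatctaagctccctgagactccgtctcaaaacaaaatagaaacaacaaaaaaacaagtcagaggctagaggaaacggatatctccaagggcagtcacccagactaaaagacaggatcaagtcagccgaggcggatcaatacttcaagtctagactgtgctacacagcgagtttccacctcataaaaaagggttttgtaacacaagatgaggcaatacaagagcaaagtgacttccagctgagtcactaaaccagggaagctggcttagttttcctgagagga
Dppa2 upstream, chr16:48308989-48309288: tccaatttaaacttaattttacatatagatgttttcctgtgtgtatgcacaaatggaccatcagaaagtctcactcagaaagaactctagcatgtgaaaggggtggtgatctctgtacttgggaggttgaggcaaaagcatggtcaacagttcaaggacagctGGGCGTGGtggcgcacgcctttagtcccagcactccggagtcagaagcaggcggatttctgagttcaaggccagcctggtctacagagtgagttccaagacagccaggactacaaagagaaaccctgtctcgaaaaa
Dppa5a downstream, chr9:78358093-78358392: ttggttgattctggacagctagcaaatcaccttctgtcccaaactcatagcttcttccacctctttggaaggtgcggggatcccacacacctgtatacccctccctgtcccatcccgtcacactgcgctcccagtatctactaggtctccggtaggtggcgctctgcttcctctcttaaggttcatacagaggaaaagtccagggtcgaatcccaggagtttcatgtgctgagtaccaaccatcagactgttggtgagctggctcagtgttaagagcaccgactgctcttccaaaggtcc

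Dppa2 and Dppa5a had a peak at the TSS itself, and Dppa3 and Dppa4 had none within 1 kb. Over all protein-coding genes, 28.5% had a peak within 1 kb of a TSS. The count of 2 of 4 genes is too small to set apart from that share and was not tested. The nearest peak to the start of Dppa3 ended 1448 bp upstream of it, just outside the promoter distance, so that with a distance of 2.5 kb the count became 3 of 4 genes, where 33.2% of all genes had a peak. At Dppa4 the nearest peak began 19.3 kb downstream of the TSS, and 64.5% of protein-coding genes had a peak nearer than that. No peak lay in the gene span of Dppa3 or of Dppa4, as in 48.9% of all protein-coding genes. A missing entry says only that no peak was listed there. In the 2001 bases around the TSS, repeats as masked in the assembly covered 40.1% at Dppa3 and 29.3% at Dppa4, but also 37.0% at Dppa2 and 21.9% at Dppa5a, against a median of 13.1% over all genes. Their part in the result was not tested.

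**Figure D1:**
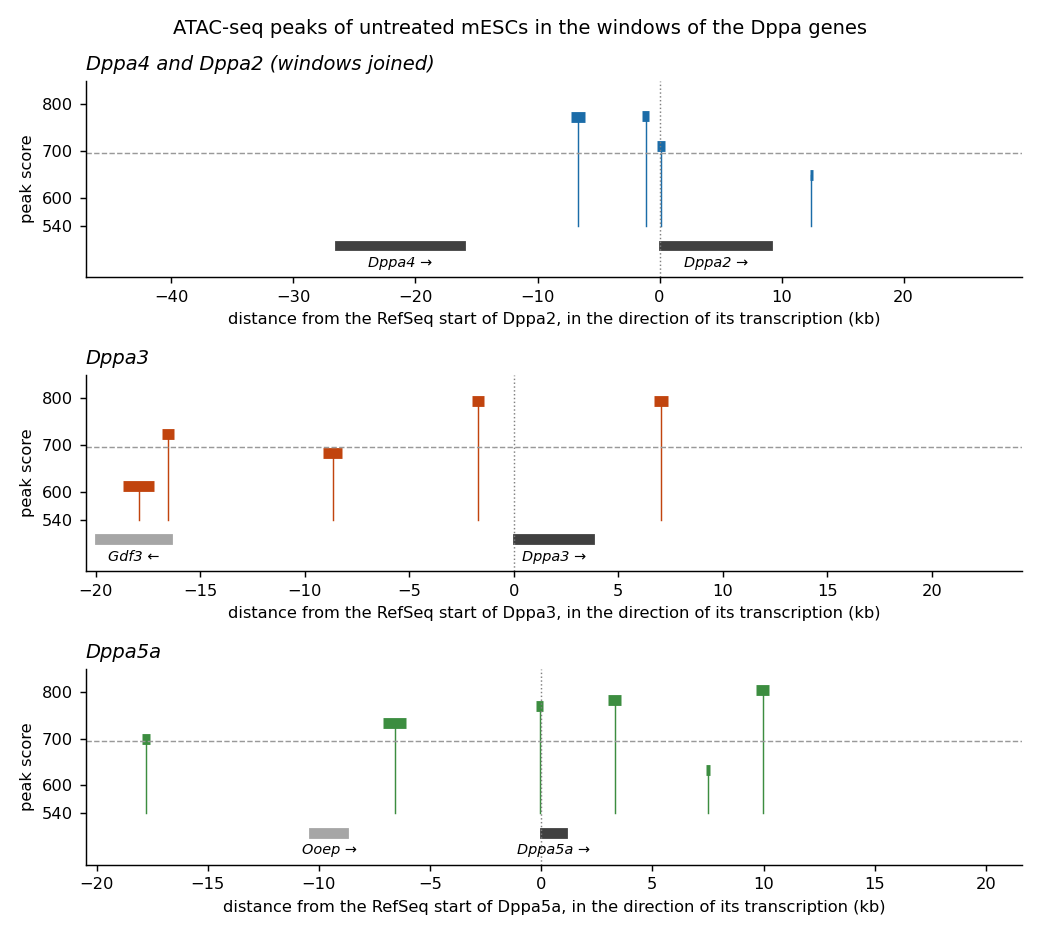
Map of the 15 peaks by distance from the RefSeq start of Dppa2, Dppa3 or Dppa5a (x axis, kb, in the direction of transcription) and by the score of each peak (y axis, drawn from 540, the lowest in the list; the dashed line is the list median of 696). Horizontal marks are as long as the peaks are wide, dark bars are Dppa genes and light bars other protein-coding genes. Peaks stand over the starts of Dppa2 and Dppa5a and at 1.45 kb before that of Dppa3, and none stands over Dppa4.

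Each of the 4 windows held several peaks, with 3 for Dppa4, 4 for Dppa2, 5 for Dppa3 and 6 for Dppa5a. The median over all protein-coding genes was 2 peaks in a window, 74.8% of the genes had at least 1 and 39.1% had 3 or more. Fewer peaks than in the Dppa4 window were found at 60.9% of all genes, and fewer than in the Dppa5a window at 90.2%. Long genes have long windows, and the Dppa genes are short, with windows of 41.1 to 50.6 kb. Per 10 kb of window, Dppa5a had 1.46 peaks, Dppa3 1.14, Dppa2 0.812 and Dppa4 0.593, against a median of 0.239 over all genes. The density was lower than that of Dppa5a at 99.4% of genes, than that of Dppa3 at 97.5%, than that of Dppa2 at 90.8% and than that of Dppa4 at 80.5%. These are positions in the list of genes, given as a description. The peaks covered 7.51% of the bases of the Dppa5a window if counted whole, 9.51% at Dppa3, 5.44% at Dppa2 and 4.75% at Dppa4.

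**Figure D2:**
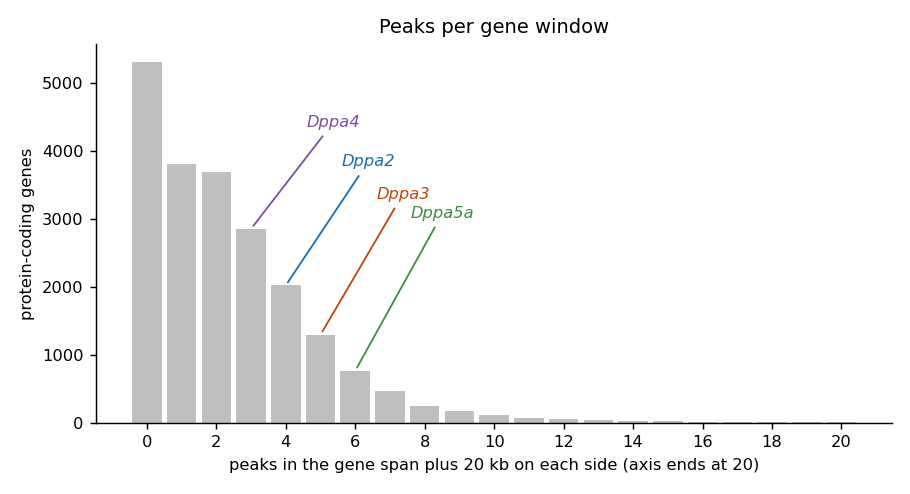
Number of protein-coding genes (y axis) by the number of ATAC-seq peaks in the gene span plus 20 kb on each side (x axis, which ends at 20), with the bars of the Dppa genes named. The 4 genes stand at 3 to 6 peaks, above the median of 2.

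The score of a peak, given by the authors, runs from 540 to 953 in the list and was read as the scaled irreproducible discovery rate (IDR), where a higher score stands for a more reproducible peak. The sources used here do not name it. The 15 peaks had scores between 612 and 805 with a median of 733, against 696 for the whole list, and 11 of them lay above the list median. Their widths ran from 212 to 1473 bp with a median of 577 bp, against 547 bp. The interval of the median, from the binomial order statistics over 15 peaks at 95%, was 683 to 782 for the score. For the width it was 359 to 871 bp, and the list median lies inside both. These intervals treat the peaks as independent draws, while many of them are neighbours at the same gene. They are a description and no test against the list. Peaks at promoters of protein-coding genes had a median score of 742 and a median width of 757 bp, and other peaks 690 and 522 bp.

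**Figure D3:**
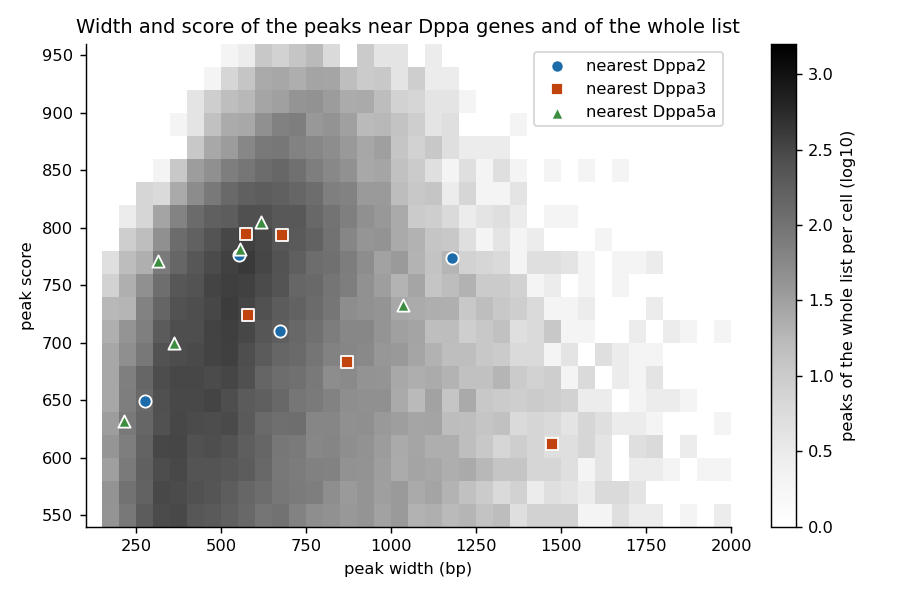
Width (x axis, bp) and score (y axis) of the 15 peaks, coloured by the nearest Dppa gene, over the number of peaks of the whole list in each cell (grey, log10). The points lie between 212 and 1473 bp and between scores of 612 and 805, and none of them reaches the upper end of the score range near 953.

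The Dppa2 start region carried 2 peaks. That over the TSS, at chr16:48310034-48310704, was 671 bp wide with a score of 710 and overlapped the first exon. The second, at chr16:48308863-48309415, ended 859 bp upstream, was 553 bp wide and scored 776, above 78.1% of the list, and repeats covered 69.1% of its bases. Both were intergenic or at Dppa2 alone, since no other gene of the annotation overlaps either window than Dppa2 and Dppa4 themselves.

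Between Dppa4 and Dppa2 stood another peak, at chr16:48303021-48304200, that belongs to no RefSeq promoter. With 1180 bp it was wider than 97.1% of the list, and its score of 774 was higher than that of 77.4%. Its near edge lay 6.07 kb before the RefSeq start of Dppa2. GENCODE M21, another annotation of the same assembly, places a start of a Dppa2 transcript at position 48303908, or -6366 bp relative to the RefSeq start, inside this peak. The second GENCODE start of Dppa2, 203 bp downstream of the RefSeq start, lay inside the peak over the TSS. So each annotated start of Dppa2 in either annotation had a peak over it. The fourth peak of the Dppa2 window lay downstream of the gene, 12.3 kb from the TSS. It was 276 bp wide, narrower than all but 3.95% of the list, with a score of 649.

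Dppa4 stood at the edge of a stretch without peaks. From its TSS, the next listed peak upstream on chromosome 16 ended 1781 kb away, and the stretch between peaks, chr16:46502667-48303020, was 1.80 Mb long. Of the 40979 stretches between neighbouring peaks on the chromosomes, 77 were longer, and the median was 19.9 kb. The stretch holds 12 annotated genes, 8 of them pseudogenes, and Dppa4 is the only protein-coding gene among them with a curated transcript. Repeats cover 44.2% of it and 0% of it is unknown sequence. The 3 peaks in the Dppa4 window are therefore those on the Dppa2 side, and each is nearer to the start of Dppa2. None of the 3 GENCODE starts of Dppa4 had a peak nearer than 19.2 kb.

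Around Dppa3 the peaks fell on both sides of the gene, 4 upstream and 1 downstream. The peak at chr6:122624405-122624976, which ended 1448 bp before the TSS, was 572 bp wide and scored 795, above 84.1% of the list. The peak downstream, at chr6:122633119-122633796, began 6.70 kb from the TSS and beyond the end of the gene, with a width of 678 bp and a score of 794. These are the highest scores in the Dppa3 window, and both peaks lie outside genes. A further intergenic peak 8.24 kb upstream, 871 bp wide, had a score of 683. The other two lay within 1 kb of the TSS of Gdf3, a TGF-beta family ligand expressed in pluripotent cells that is read from the opposite strand. Of these, the peak over the Gdf3 TSS was 577 bp wide with a score of 724. The one in the Gdf3 gene, 17.2 kb from the start of Dppa3, was the widest of the 15 with 1473 bp, wider than 99.2% of the list, and had the lowest score, 612.

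At Dppa5a the TSS was covered by a narrow peak, chr9:78368103-78368415. It was 313 bp wide, and 7.60% of the list was narrower, while its score of 771 was higher than that of 76.4%. It had the highest GC content of the 15, 59.4%, and 3.51 CpG per 100 bases. Downstream by 3025 bp, beyond the end of this short gene, followed a peak of 555 bp with a score of 782, then a peak of 212 bp, the narrowest of the 15, with a score of 632. The peak 9.65 kb downstream had the highest score of the 15, 805, above 86.8% of the list, with a width of 616 bp. Upstream, in the direction of Ooep, which encodes a KH-domain protein of the oocyte's subcortical maternal complex, a peak of 1034 bp with a score of 733 began 6.08 kb from the TSS, and the last one, 359 bp wide with a score of 700, lay 17.6 kb away. The next peak beyond the window, at 21.8 kb from the gene, had a score of 735. No peak lay within 1 kb of the Ooep TSS.

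Reads from near-identical copies of a gene cannot be placed with certainty, and how they were filtered for ATAC-seq is not given in the sources used here. The 2001 bases around each TSS and the 15 peaks were searched in the chromosomes for stretches of at least 200 bp with at least 90% identity. Repeat-masked bases could not start a match, so copies lying in repeats were not searched for. Outside repeats, none of the 15 peaks had such a copy, nor had the start regions of Dppa2, Dppa3 and Dppa4. Repeats covered a median of 37.2% of a peak, and whether reads could be placed there was not tested. Of the Dppa5a start region, 968 bp, the part inside the gene, had 2 copies on chromosome 9. They lie in the annotated pseudogenes Dppa5c, with 98.3% identity, and Dppa5b, with 97.9%. No peak was listed within 1 kb of either copy. The peak over the Dppa5a TSS shares 64 of its bases with them, and the other 249 are outside the copies. Its extent on the side of the gene is therefore uncertain.

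The sequences of the 15 peaks had less GC and more repeats than the list. The median GC content was 48.2%, against 52.1% over 41000 peaks on the chromosomes, and 12 of the 15 lay below that value. Repeats covered a median of 37.2% of a peak, against 10.9% over the list, and 14 of the 15 lay above that value. Of all peaks, 15.2% had as large a share of repeats as the median of the 15. The median number of CpG per 100 bases was 1.79, against 1.61.

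Motifs were searched on both strands in the central 300 bases of each peak. They were the octamer ATGCAAAT of OCT factors, CATTGTT for SOX, TCAAGGTCA for ESRRB, GGGNGTGG for KLF and TTCCNGGAA for STAT. The E-box was searched as CACGTG, bound by MYC and related factors. The ZFX motif was searched as AGGCCT, E2F as TTTCGCGC, and CTCF by a core motif. The octamer had 2 matches, both in the peak upstream of Dppa3 whose sequence is printed above, as ATTTGCAT on the plus strand and 44 bases apart. An octamer was present in 2.85% of all peaks and in 1.74% of 32851 RefSeq promoters of the same length. At least 2 octamers were present in 0.129% of all peaks, a share computed after these 2 matches were seen. The KLF motif had 7 matches in 4 of the 15 peaks, against 23.3% of all peaks and 17.6% of promoters. Of these 7 matches, 4 lay in the peak over the Dppa5a TSS, 1 at -14 bp from the TSS and 3 in a chain of overlapping matches at -152, -158 and -164 bp. One match lay as GGGCGTGG in the peak just upstream of Dppa2, of which repeats covered 69.1%. Another lay with a ZFX match in the peak 17.6 kb upstream of Dppa5a, of which repeats covered 72.7%. Whether these matches fall on repeat-masked bases was not examined. The SOX motif was found in 2 of the 15 peaks, against 5.05% of all peaks, and the ZFX motif in 1, against 13.4%. The 5 other motifs had no match, and 8 of the 15 peaks held none of the motifs in the letters searched. The CTCF motif was searched as 1 string with a few open positions, and sites that differ from it elsewhere were not counted. The Dppa5a downstream peak printed above and the peak 17.6 kb upstream of Dppa5a each held a sequence that differs from this string by 1 letter. The missing match therefore does not show that CTCF-like sequences are absent. A match is a description of the letters and does not show binding.

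No ZBTB21 peak and none of the study's loops classified by their response to ZBTB21 loss lay in the windows of the Dppa genes. None of the 15 peaks overlapped a ZBTB21 peak (0 of 15), where 1.98% of the list did, taking the 1827 ZBTB21 ChIP-seq peaks of mESCs that the study lists. No window held a ZBTB21 peak, against 14.7% of protein-coding genes. Counts of 0 in 15 peaks and 4 genes are too small to be set apart from these shares. The nearest ZBTB21 peak lay 152 kb from Dppa5a, 154 kb from Dppa3, 4.39 Mb from Dppa4 and 4.42 Mb from Dppa2. No window overlapped any of the 500 ZBTB21-responsive loops, which 17.3% of genes did, or of the 500 less-responsive loops, which 6.68% did. Both classes were drawn from long loops, and the other loops of the study were not analysed here. Among the classified loops, the nearest to a Dppa gene was a responsive one 170 kb from Dppa3. For Dppa5a the nearest of them was a less-responsive loop at 332 kb, and for Dppa2 and Dppa4 less-responsive loops at 2505 and 2531 kb. By the study's definition, responsive loops contain ZBTB21 peaks and less-responsive loops do not, and both classes were ranked from signals at ATAC-seq peaks, so neither is independent of the peak positions.

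Peaks were also counted for genes linked to the Dppa proteins, in lists described by their counts beside the 28.5% of all genes with a promoter peak. Among the core pluripotency genes, Nanog, Pou5f1 and Sall4 of 6 had a peak within 1 kb of a TSS, with top scores of 805, 861 and 820, and Lin28a, Sox2 and Utf1 had none. The top scores at the Dppa2 and Dppa5a promoters, 776 and 771, lay below these. The windows of the core genes held a median of 4 peaks. Among the naive pluripotency genes, 5 of 10 had a promoter peak. The top scores were 909 at Tbx3, 892 at Zfp42, 687 at Nr5a2, 680 at Prdm14 and 612 at Nr0b1. Those at Dppa2 and Dppa5a lay between these. The windows of the naive genes held a median of 4.5 peaks, as did those of the Dppa genes, with 15 at Esrrb and 0 at Klf4. Windows differ in length, and per 10 kb the median was 0.551 for the naive genes, 0.895 for the core genes and 0.976 for the Dppa genes. Among partners of DPPA3 in DNA methylation and transport, Uhrf1, whose product recruits DNMT1 to hemimethylated DNA, and Dnmt1, the maintenance methyltransferase, had a promoter peak, 2 of 7 genes. The top promoter score was 866 at Uhrf1 and 711 at Dnmt1. Tet1, Tet2 and Tet3, which encode enzymes that oxidize 5-methylcytosine, and the transport factors Xpo1 and Ipo5 had none.

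Among KH-domain relatives of DPPA5A, 1 of 5 had a promoter peak, Khdc3, which encodes another protein of the oocyte's subcortical maternal complex, with a score of 617. Ooep had 7 peaks in its window, 1 more than its neighbour Dppa5a, whose window overlaps it. Khdc1a and Khdc1c had none. Of the genes of the 2-cell embryo downstream of DPPA2 and DPPA4, 0 of 9 annotated genes had a promoter peak, among them Zscan4c, Zscan4d, Zscan4f and Zfp352, and Tcstv3 alone had a peak in its window. Duxf3, the tenth gene of that list, had no curated transcript among the starts used. Many of these genes lie in arrays of near-identical copies, so a missing peak there is uncertain.

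**Figure D4:**
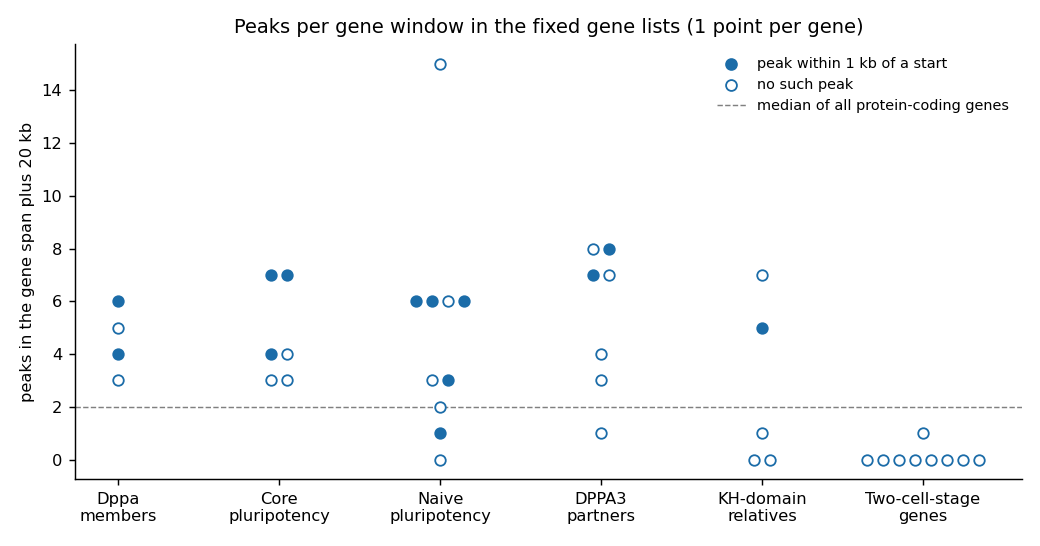
ATAC-seq peaks in the gene span plus 20 kb on each side (y axis) for the Dppa genes and for 5 gene lists (x axis), 1 point per gene. Filled points have a peak within 1 kb of a TSS, open points do not, and the dashed line is the median of 2 over all protein-coding genes. The Dppa genes stand at 3 to 6 peaks, and the 2-cell-stage genes at 0 or 1.

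Peaks were also counted at markers of the labelled cell type and of fibroblasts. Of 12 mESC markers, 4 had a promoter peak (Nanog, Pou5f1, Sall4 and Zfp42), against 28.5% of all protein-coding genes. This count is too close to that share to identify the cells. The windows of the 12 markers held a median of 4 peaks. Of 12 markers of fibroblasts, named as feeder cells by the labels alone, only Thy1 had a promoter peak, and the median was 1 peak in a window. At least 1 peak in the window was listed for 11 of the mESC and 7 of the fibroblast markers, against 74.8% of all genes. The other 8 mESC markers, Sox2, Klf4, Klf2, Esrrb, Tfcp2l1, Lin28a, Tdgf1 and Fgf4, had no promoter peak. Within one list without read counts, peaks from mESCs and from any feeder cells cannot be told apart.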

How the data were processed

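ATAC-seq peaks of the 2 untreated V6.5 mESC samples were analysed. The authors deposited 1 list for both, with mm10 positions and a score per peak. The peak calling steps for ATAC-seq, and whether cut sites were shifted for Tn5, are not given in the sources used here. The submitters' processing notes name cutadapt 2.6, Bowtie2 2.3.5.1 and MACS2 2.1.1. For ChIP-seq of the same study, an IDR threshold of 0.05 over replicates was used. The list gives no depth per sample, and the 4 degron samples were not analysed here.

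Peaks were assigned by an overlap of at least 1 bp to TSSs of curated RefSeq transcripts (within 1 kb) and to gene spans with 20 kb on each side. No peak ended beyond its GRCm38 chromosome (0 peaks). ZBTB21 peaks and loops came from the study's supplementary lists. Since there is 1 condition without replicate values, no test was run, and shares over all 21000 protein-coding genes are given as background. Of the 4 genes, 0 matched the RefSeq promoter table, so peak sequences were read from GRCm38 in place of promoters, at the coordinates of the peaks. Copies were searched with blastn, where repeat-masked bases could not start a match. Interval counts and motif searches were tested on simulated data, where 0 of 4001 comparisons with a direct count differed. Counting ran in Python 3.11.15 (pandas 2.3.3, numpy 2.4.6), intervals came from scipy 1.17.1 and sequences were read with pysam 0.24.0.

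The members, gene lists and motifs were chosen with earlier results of these data known. Every peak of the 4 windows, every gene overlapping them and the genes of the lists could be named. The alternatives were other TSS distances, flanks and overlap rules, peaks with a score above the median, merging of peaks within 500 bp, model transcripts and GENCODE starts, the last chosen after seeing the data.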

Additional observations from a re-analysis of the deposited data

How the results depend on the processing

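Over 17 results, 56 values were computed under alternatives, and 50 stayed within 1.5 times the count or within the interval of the median. When peaks at or below the median score were dropped, the naive pluripotency genes with a promoter peak fell from 5 to 2 of 10, and the KH-domain relatives from 1 to 0 of 5. The other 4 shifts were window counts of single genes, between 3 and 10 at Dppa3 and 1 at Dppa4 with a flank of 10 kb. The count of Dppa genes with a promoter peak was 2 or 3 throughout, and became 3 with a TSS within 2.5 or 5 kb. The overlap with ZBTB21 peaks widened by 500 bp or 5 kb, and the loops counted by their anchors, were also 0. Neither could differ, since no ZBTB21 peak lay nearer than 152 kb to a Dppa gene and no classified loop overlapped a window. The 50 values above include such fixed outcomes, which say nothing about stability. No paired analysis was possible because the list pools both untreated replicates; leaving out either was impossible for the same reason. Without read counts, the list cannot tell a site below the peak threshold from a closed one.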

Other observations

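Dppa3 lies between Gdf3 and Nanog, and peaks were also counted over this wider stretch. Other stretches of like length were not counted, so the number below has no background. From Apobec1 through Gdf3 and Dppa3 to Nanog, 137 kb of chromosome 6 held 12 ATAC-seq peaks, 5 of them in the Dppa3 window, and 9 of the 12 scored above the list median. At a RefSeq promoter lay 4 of them, those of Apobec1, Gdf3 with 2 peaks, and Nanog, and 8 lay at none. The start of Nanog is 81.1 kb downstream of that of Dppa3. The highest score of the stretch, 850, belonged to a peak of 982 bp at chr6:122702272-122703253, upstream of Nanog and at no promoter, and the peak over the Nanog TSS had a score of 805 and a width of 425 bp. With a flank of 50 kb the window of Dppa3 held 10 peaks, where the median of all genes was 4.

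Dppa1, another gene with a Dppa name that was not among the 4 taken here, had no peak in its window. The peak nearest to its start lay 104 kb away. The Dppa1 window overlapped a ZBTB21-responsive loop, unlike those of the 4 Dppa genes described.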
